A study of Mus musculus with 11 samples.

Results

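The transcripts of the insulin-like growth factor (IGF) axis were followed in whole skin of neonatal mice after regulatory T cells (Tregs) were depleted. The set was defined by name and holds 9 of the 49315 genes in the count table: the ligand gene Igf1, the receptor genes Igf1r and Igf2r, and the binding protein genes Igfbp2, Igfbp3, Igfbp4, Igfbp5, Igfbp6 and Igfbp7. All 9 passed the filter on low counts, which kept 18375 genes. Against control skin, Igfbp2 had the largest difference among them: its transcript was 2.08-fold lower in ΔTreg skin, depleted over the whole window. Age and depletion cannot be told apart in that comparison. Against late-depleted (ΔLTreg) skin, of the same age by the study's design, Igfbp2 missed the threshold (edgeR adjusted p = 0.0513). Igf1 passed edgeR's test in none of the 6 comparisons between groups. Igf1r, Igfbp3 and Igfbp7 differed between depleted groups by 1.17-fold to 1.44-fold, and each of these calls was lost in some alternative settings. Igfbp2 was also 2.34-fold lower in ΔTreg than in early-depleted (ΔETreg) skin, which was harvested at a younger age. Igf2r, Igfbp4, Igfbp5 and Igfbp6 did not pass edgeR's test on all 11 libraries in any comparison. Alternative settings called Igfbp4, Igfbp5 and Igfbp6 in some.

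IGF-1 and IGF-2 are secreted growth factors that signal through the IGF-1 receptor, a tyrosine kinase that acts on the PI3K-AKT and MAPK cascades. The IGF-2 receptor, also the mannose-6-phosphate receptor, takes up IGF-2 for breakdown and does not signal as a kinase. IGF-binding proteins hold the ligands in fluid and matrix and can limit or prolong their action, and proteases release the ligands by cutting them. In skin, IGF-1 comes largely from dermal cells, acts on keratinocytes and hair follicles, and has been studied as a factor that promotes melanin production.

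All 11 mice carried Foxp3-DTR, in which the diphtheria toxin (DT) receptor is driven by the Foxp3 promoter, so that DT removes cells that express Foxp3. Control mice (n = 2) received PBS, and the labels do not give their day of harvest. DT was given at 30 ng per g. ΔETreg mice (EarlyDT in the labels, n = 3) received 2 doses on P6 and P8 and were harvested on P9, ΔLTreg mice (LateDT, n = 3) received 2 doses on P10 and P12 and were harvested on P13, and ΔTreg mice (FullDT, n = 3) received 4 doses from P6 to P12 and were harvested on P13. The study describes its controls as matched in age to the group they were set against, but the labels do not tie either control library to a day. ΔTreg and ΔLTreg skin are of the same age by the study's design. In each comparison with the pooled controls, age and depletion cannot be told apart, and the same 2 control libraries served in each of them. Nor can they be told apart where ΔETreg skin, harvested on P9, is set against ΔLTreg or ΔTreg skin, harvested on P13. By the levels of Xist and Ddx3y, both sexes were present in every group.

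The authors deposited the reads counted on each gene, with totals between 23377571 and 34159435 per library. Levels are given as CPM, that is counts scaled to a common depth by the TMM library size, and differences were tested by quasi-likelihood in edgeR, with p-values adjusted over the 18375 genes by the Benjamini-Hochberg method. A gene was called at an adjusted p under 0.05. One library stood apart for these genes. ΔLTreg mouse 3 was the lowest of its group for 7 of the 9 genes, that is for Igf1 and all 6 binding proteins, against 40.9% of all genes tested. It was also lowest for all 8 fibroblast markers and all 8 macrophage markers, highest for 6 of 7 skeletal muscle markers, and the only male of its group. Over all genes it was ΔLTreg mouse 1 that was least like its group mates. The median chi-square per gene was 2.49 between mice 1 and 2, 3.52 between mice 1 and 3 and 1.56 between mice 2 and 3. Called differences and counts that rest on ΔLTreg skin are given with and without ΔLTreg mouse 3. Since this mouse was lowest for 7 of the 9 genes, leaving it out always raises their ΔLTreg means. Calls gained or lost that way are a description only. In bulk tissue, fewer cells of a type and less RNA per cell cannot be told apart.

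**Figure D1:**
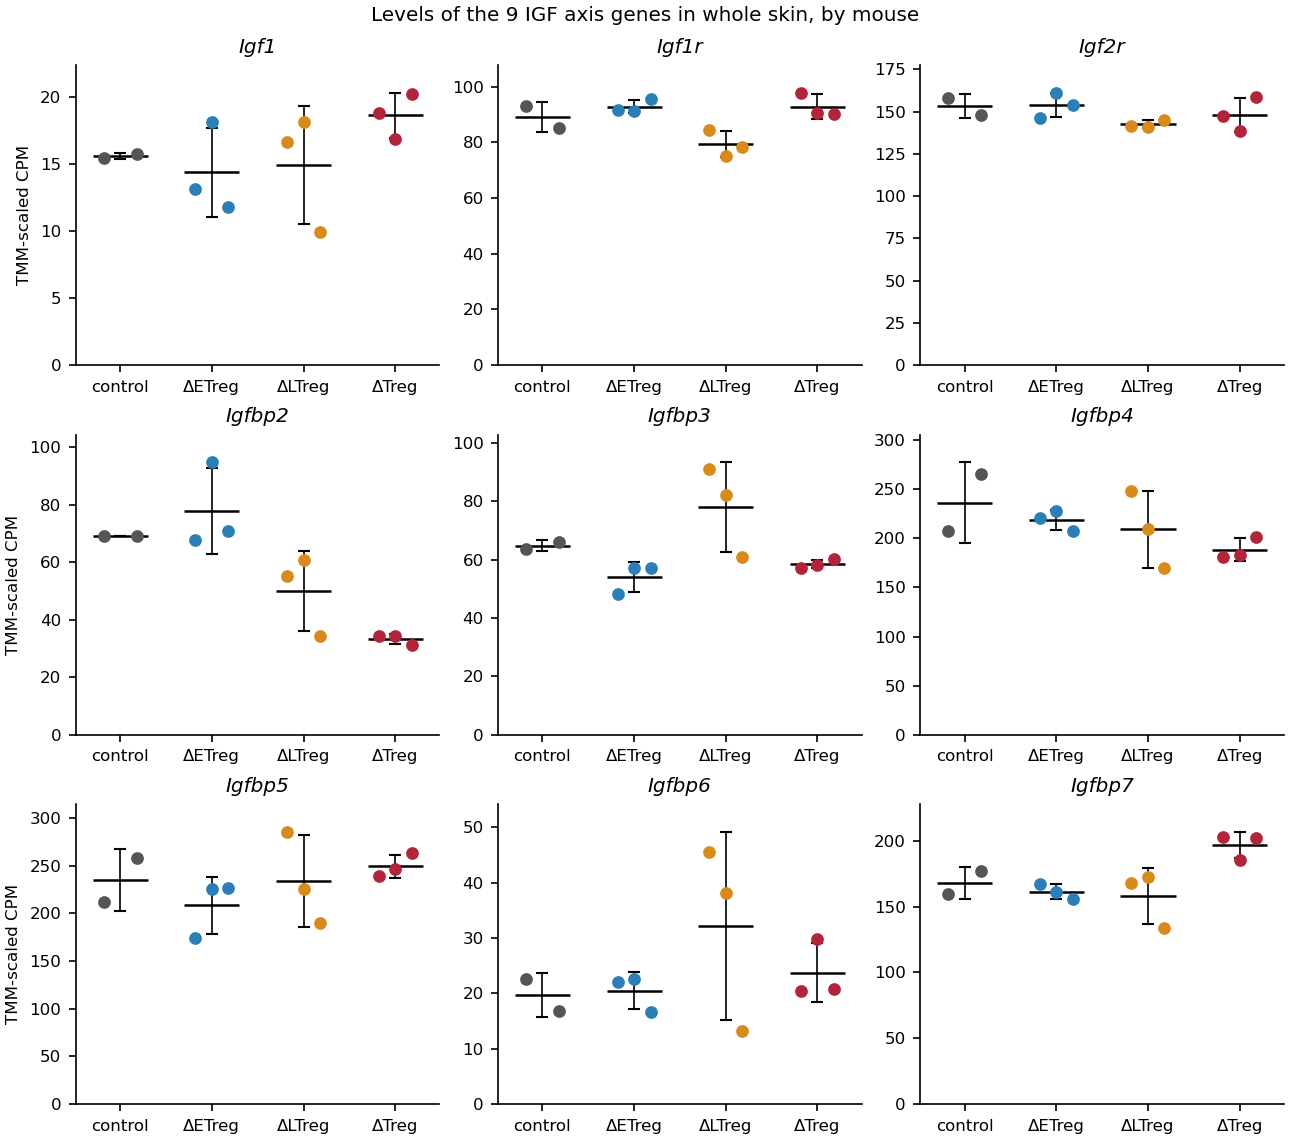
Each panel shows 1 gene, with TMM-scaled CPM on the vertical axis and 1 point per mouse in the control (n = 2), ΔETreg, ΔLTreg and ΔTreg groups (n = 3 each), and bars mark the mean ± SD. Igfbp2 lies between 31.3 and 34.3 CPM in ΔTreg skin and at 69.0 and 69.2 CPM in control skin, and the rightmost ΔLTreg point, mouse 3, is the lowest of its group for Igf1 and for each of the 6 binding proteins.

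To order the transcripts among themselves, CPM was divided by the length in kb of the merged exons of each gene. Igfbp7 was the most abundant at 142 ± 16.7 CPM per kb (SD, n = 11 mice of all groups). Igfbp4 followed at 47.8 ± 6.50, Igfbp5 at 38.5 ± 5.37, Igfbp2 at 30.6 ± 11.2, Igfbp6 at 21.96 ± 8.75 and Igfbp3 at 20.4 ± 3.93 CPM per kb. The receptor transcripts were lower, Igf2r at 16.0 ± 0.837 and Igf1r at 5.27 ± 0.415 CPM per kb, and Igf1 was lowest at 1.61 ± 0.317 CPM per kb. Igfbp7 stood above Igfbp4, Igf2r above Igf1r and Igf1r above Igf1 in every mouse with no overlap within any group. Igfbp4 stood above Igfbp5 in all 11 mice, though their ranges overlapped in 2 groups, and Igfbp3 above Igf2r in 10. Igfbp5, Igfbp2, Igfbp6 and Igfbp3 did not hold one order: Igfbp5 exceeded Igfbp2 in 7 of 11 mice, Igfbp2 exceeded Igfbp6 in 7 and Igfbp6 exceeded Igfbp3 in 6. By group mean, Igfbp2 had rank 3 of the 9 genes in ΔETreg skin and rank 6 in ΔTreg skin. These levels use the union of all annotated exons, so a gene that mostly uses shorter isoforms is understated.

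Igf1 encodes the ligand that the study followed as a candidate signal to melanocytes. It was measured at 15.5 and 15.8 CPM in control skin. The ΔETreg mice had 13.2, 18.1 and 11.8 CPM, and the ΔLTreg mice 16.7, 18.2 and 9.96 CPM. The ΔTreg mice, at 18.8, 16.9 and 20.2 CPM, lay above both controls but overlapped with both other depleted groups. Against control, the log2 fold change was -0.12 in ΔETreg skin, with a 95% interval from -0.63 to 0.39, and 0.25 in ΔTreg skin, with an interval from -0.25 to 0.76 (edgeR adjusted p = 1.00 and 0.479). The intervals refer to whole skin, and single compartments such as the hair follicle were not measured here.

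The receptor transcripts varied little. Igf1r had 92.9 and 85.3 CPM in control skin and 91.6, 91.4 and 95.6 CPM in ΔETreg skin. It was at 84.4, 75.2 and 78.5 CPM in ΔLTreg skin and at 97.9, 90.5 and 90.2 CPM in ΔTreg skin. All 3 ΔLTreg mice lay below every other mouse. Igf1r was 1.17-fold higher in ΔTreg than in ΔLTreg skin (log2 fold change 0.23, SE 0.0561, edgeR adjusted p = 0.0184), and the difference between ΔETreg and ΔLTreg skin was of the same size (0.23, SE 0.0562, edgeR adjusted p = 0.0392). The first call held without ΔLTreg mouse 3 (edgeR adjusted p = 0.0483) but was lost without ΔLTreg mouse 2 (0.0742) or ΔTreg mouse 1 (0.0916) and with library size in place of TMM (0.0734). The second was lost in 10 of 18 alternative settings, among them without ΔLTreg mouse 3 (edgeR adjusted p = 0.0708) and without any one of the ΔETreg mice. Igf2r lay between 138.6 and 161 CPM in all 11 mice, and its log2 fold change against control was between -0.10 and 0.01 in the depleted groups, with none called.

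Igfbp2 encodes a binding protein that prefers IGF-2 and can attach to integrins. It was measured at 69.2 and 69.0 CPM in control skin and at 67.8, 94.9 and 70.8 CPM in ΔETreg skin. The ΔLTreg mice had 55.1, 60.7 and 34.3 CPM. The ΔTreg mice were tightly grouped at 34.3, 34.2 and 31.3 CPM. Every ΔTreg mouse was below every control and ΔETreg mouse, while ΔLTreg mouse 3 reached the ΔTreg level and its group mates lay between. Against control, Igfbp2 in ΔTreg skin fell by 1.06 on the log2 scale (SE 0.202, edgeR adjusted p = 0.00363), from a mean of 69.1 ± 0.143 CPM (SD, n = 2) to 33.3 ± 1.71 CPM (SD, n = 3). Against ΔETreg skin it was 2.34-fold lower (log2 fold change -1.23, SE 0.185, edgeR adjusted p = 0.000660). Both calls held under all 18 alternatives, with adjusted p-values up to 0.0279 and 0.00441.

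At equal age, ΔTreg against ΔLTreg, the Igfbp2 difference missed the threshold (log2 fold change -0.59, 95% interval -0.99 to -0.18, edgeR adjusted p = 0.0513). Without ΔLTreg mouse 3 it was -0.80 (edgeR adjusted p = 0.00114), while it was -0.51 without ΔLTreg mouse 1 (edgeR adjusted p = 0.125) and -0.43 without ΔLTreg mouse 2 (edgeR adjusted p = 0.150). The difference was called by 5 of 18 alternatives, among them DESeq2's Wald test (adjusted p = 0.0131), the test the study names. Igfbp2 was 0.64 higher on the log2 scale in ΔETreg than in ΔLTreg skin, where the groups did not overlap and the test was missed (edgeR adjusted p = 0.0617). That difference was 0.43 without ΔLTreg mouse 3 (edgeR adjusted p = 0.0543), and it was called by DESeq2 (adjusted p = 0.0166), without a filter on low counts (edgeR adjusted p = 0.0226) and without ΔLTreg mouse 2 (0.0332). Between ΔLTreg and control skin the log2 fold change was -0.47 (95% interval -0.91 to -0.03, edgeR adjusted p = 0.219), and -0.25 without that mouse (edgeR adjusted p = 0.297). Across the 11 libraries, the transcripts whose centred log2 CPM ran closest to Igfbp2, among 13891 named genes with a mean count of at least 50, were Fbln2, with a root mean square distance of 0.124, Col14a1 with 0.142 and Pdgfrl with 0.144. Fbln2 and Col14a1 encode matrix proteins of connective tissue. Since they were chosen for this likeness, their log2 fold changes in ΔTreg against control skin, -1.10 for Fbln2, -1.08 for Col14a1 and -1.01 for Pdgfrl, are a description only.

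Igfbp2 (ENSMUSG00000039323, GRCm38 chr1:72824503-72852474, plus strand) and Igfbp5 (ENSMUSG00000026185, chr1:72857932-72874884, minus strand) are protein-coding neighbours that point towards each other, with 5457 bases between their 3′ ends. The other members lie elsewhere: Igf1 at chr10:87858265-87937042, Igf1r at chr7:67952827-68233668, Igf2r at chr17:12682406-12769664, Igfbp3 at chr11:7206086-7213923, Igfbp4 at chr11:99041244-99054392, Igfbp6 at chr15:102144362-102149511 and Igfbp7 at chr5:77349240-77408041. Igfbp2 was called in ΔTreg against control skin and Igfbp5 was not, and their upstream sequences from RefSeq (GRCm38.p6) are shown to set the pair side by side. Each is written 5′ to 3′ on the strand of its gene and stops before the first transcribed base of the annotation used here, at chr1:72824230-72824479 for Igfbp2 and chr1:72874885-72875115 for Igfbp5. Capitals mark matches to GGGCGG, the GC box, on either strand.
Igfbp2: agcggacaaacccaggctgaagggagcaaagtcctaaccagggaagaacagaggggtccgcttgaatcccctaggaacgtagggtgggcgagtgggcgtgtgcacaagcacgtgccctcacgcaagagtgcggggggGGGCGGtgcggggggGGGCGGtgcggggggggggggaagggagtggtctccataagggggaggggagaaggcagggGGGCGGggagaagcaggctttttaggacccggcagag
Igfbp5: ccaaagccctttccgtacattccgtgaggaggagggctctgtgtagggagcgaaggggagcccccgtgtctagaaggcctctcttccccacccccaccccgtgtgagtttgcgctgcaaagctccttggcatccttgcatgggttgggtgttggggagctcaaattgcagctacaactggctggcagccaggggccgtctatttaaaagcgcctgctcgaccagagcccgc
The Igfbp2 stretch held 3 GC boxes and the Igfbp5 stretch none. Neither held a TATA box (TATAAA) or a STAT element (TTCNNNGAA). Over the 250 bases before the start, a GC box was present for 4 of the 9 genes, Igfbp2, Igfbp7, Igf1r and Igf2r, and in 32.7% of the 32851 RefSeq promoters. The 9 genes had 10 promoters, and a gene was counted if any of its promoters matched, while the shares are by promoter. Another Igfbp2 promoter, at chr1:72825137-72825436, held 0 GC boxes. A TATA box was present for Igfbp4 and Igfbp6 and in 12.4% of all promoters, and a STAT element for none of the 9 and in 7.02% of all promoters. The motifs do not overlap in letters, both strands were searched, and a match or its absence in these windows is a description only.

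Igfbp3 encodes the main carrier of IGFs in blood, where it forms a ternary complex with the acid-labile subunit. It was measured at 63.6 and 66.1 CPM in control skin and at 48.1, 57.2 and 57.0 CPM in ΔETreg skin. The ΔLTreg mice had 91.0, 82.1 and 60.9 CPM, the first 2 of them above all other mice. The ΔTreg mice had 57.2, 58.3 and 60.1 CPM, below all 3 ΔLTreg mice. Igfbp3 was 1.33-fold lower in ΔTreg than in ΔLTreg skin (log2 fold change -0.41, SE 0.121, edgeR adjusted p = 0.0377) and 1.44-fold lower in ΔETreg than in ΔLTreg skin (-0.53, SE 0.121, edgeR adjusted p = 0.0286). Without ΔLTreg mouse 3 these differences were -0.56 and -0.67 (edgeR adjusted p = 0.000560 and 0.00104), and ΔLTreg skin was then also called against control, 0.42 higher (edgeR adjusted p = 0.0196). The call against ΔTreg skin was lost when any one of ΔLTreg mice 1 and 2, ΔETreg mice 2 and 3 or the ΔTreg mice was left out (adjusted p from 0.0507 to 0.111), and the call between ΔETreg and ΔLTreg skin without any one of the ΔETreg mice or ΔLTreg mice 1 and 2 (0.0626 to 0.0977).

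Igfbp6 encodes a binding protein with a strong preference for IGF-2, and it was the most variable member. It had 22.6 and 16.9 CPM in control skin and 22.1, 22.6 and 16.6 CPM in ΔETreg skin. It had 45.5, 38.0 and 13.1 CPM in ΔLTreg skin and 20.5, 29.9 and 20.9 CPM in ΔTreg skin. The highest and the lowest values of all 11 mice were both in the ΔLTreg group, and no comparison was called. Without ΔLTreg mouse 3, Igfbp6 was 1.09 higher on the log2 scale in ΔLTreg than in control skin (edgeR adjusted p = 0.0174), 0.81 lower in ΔTreg than in ΔLTreg skin (0.0134) and 1.02 lower in ΔETreg than in ΔLTreg skin (0.0110). The mouse left out held the lowest Igfbp6 value, so these calls are a description only.

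Igfbp4, whose protein restrains IGF action until it is cut, and Igfbp5, a matrix-bound binding protein, showed no difference called by edgeR on all 11 libraries. Igfbp4 had 207 and 266 CPM in control skin and 181, 183 and 202 CPM in ΔTreg skin, so that the groups did not overlap. Its log2 fold change was -0.33 with a 95% interval from -0.63 to -0.02 (edgeR adjusted p = 0.125), and DESeq2's Wald test called it (adjusted p = 0.0250). Between ΔTreg and ΔETreg skin Igfbp4 was called lower by DESeq2 (adjusted p = 0.00314) and by edgeR on the 2 groups alone (0.0172), and Igfbp5 was called higher by DESeq2 (adjusted p = 0.0187). Igfbp5 had 211.5 and 258 CPM in control skin, 174 to 227 CPM in ΔETreg, 189.6 to 286 CPM in ΔLTreg and 239 to 263 CPM in ΔTreg skin. Its ranges overlapped between control and every depleted group, and in ΔTreg against control skin the log2 fold change was 0.09 with a 95% interval from -0.27 to 0.44.

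Igfbp7 encodes a secreted protein of vessel walls with weak binding to IGFs. It had 159.5 and 177 CPM in control skin, 167, 161 and 156 CPM in ΔETreg skin and 168, 172 and 134 CPM in ΔLTreg skin. The ΔTreg mice had 203, 185 and 202 CPM, above all other mice. Igfbp7 was 1.25-fold higher in ΔTreg than in ΔLTreg skin (log2 fold change 0.32, SE 0.0880, edgeR adjusted p = 0.0305) and 1.22-fold higher than in ΔETreg skin (0.29, SE 0.0880, edgeR adjusted p = 0.0369). Against control the log2 fold change was 0.23 with a 95% interval from 0.01 to 0.44 (edgeR adjusted p = 0.130), called in 3 of 18 alternatives. The first call was lost without ΔLTreg mouse 3 (0.21, edgeR adjusted p = 0.0538) without ΔTreg mouse 1 or 3 (0.110 and 0.0928), with library size in place of TMM (0.0686) and by edgeR on the 2 groups alone (0.0786). The second was lost in 7 of 18 alternatives, among them without any one of the ΔETreg mice. Of 7 endothelial markers, 1 was called higher and 4 were called lower in ΔTreg than in ΔLTreg skin, beside 10.7% and 6.11% of all genes. Their summed level was 234 to 251 CPM in ΔTreg and 242 to 254 CPM in ΔLTreg skin.

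**Figure D2:**
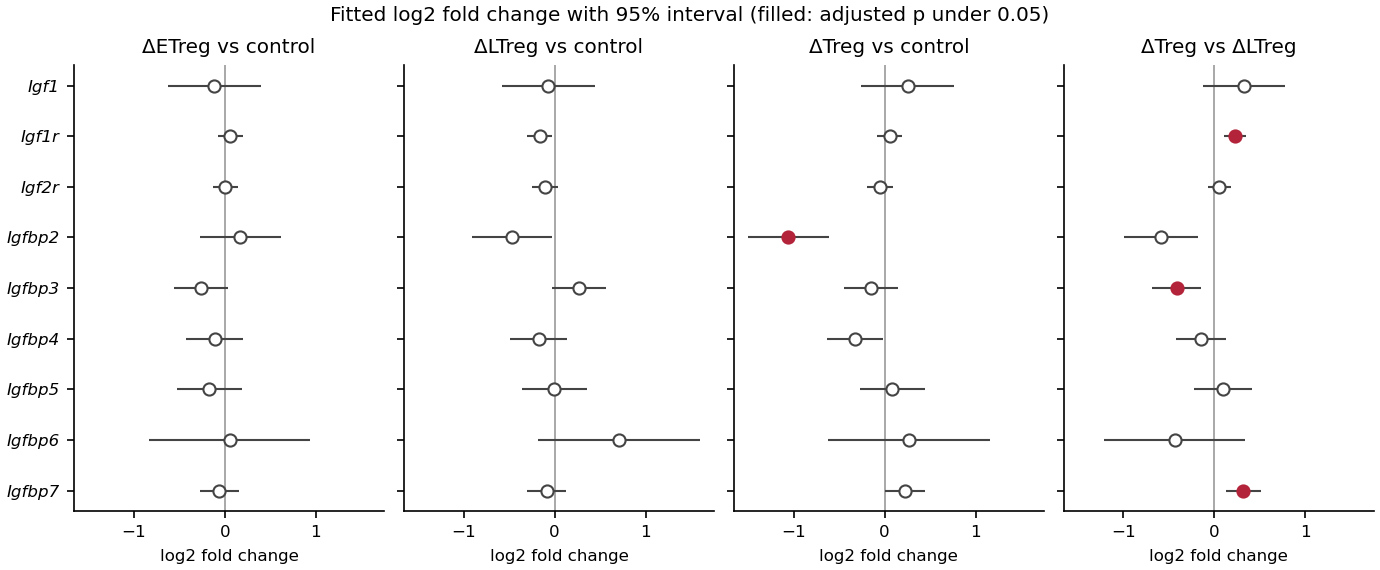
Points are fitted log2 fold changes of the 9 genes in ΔETreg, ΔLTreg and ΔTreg skin against control and in ΔTreg against ΔLTreg skin, bars are 95% intervals, and filled points passed an adjusted p of 0.05. Igfbp2 is the only filled point against control, at -1.06 in ΔTreg skin, and Igf1r, Igfbp3 and Igfbp7 are filled between ΔTreg and ΔLTreg skin.

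The number of the 9 genes called was read against the share of all 18375 genes called in the same comparison, the background. None was called between ΔETreg and control skin, where 1 gene in all (0.00544%) was called, no member had an unadjusted p under 0.05 and DESeq2 called 0. None was called between ΔLTreg and control skin, where 2 had an unadjusted p under 0.05, DESeq2 called 0 and the background was 4.55% (1.86% higher and 2.69% lower). Of the 9, 1 was called between ΔTreg and control skin, against 21.5% of all genes (12.1% higher and 9.39% lower), where edgeR on the 2 groups alone called 2 and DESeq2 called 3. Between ΔTreg and ΔLTreg skin 3 were called, 2 higher and 1 lower, against 16.8% of all genes (10.7% higher and 6.11% lower). Without ΔLTreg mouse 3 these were 4, 1 higher and 3 lower, and 2 members were then called higher in ΔLTreg than in control skin. Between ΔTreg and ΔETreg skin 2 were called, 1 in each direction, against 23.1% (13.2% higher and 9.81% lower), and between ΔETreg and ΔLTreg skin 2 were called, 1 in each direction, against 6.38% (3.27% higher and 3.12% lower). The median log2 fold change of the 9 genes was 0.06 in ΔTreg against control skin and 0.06 against ΔLTreg skin, beside -0.0059 and -0.0044 over all genes tested.

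The 6 Igfbp transcripts summed to 308 ± 21.7 CPM per kb in control skin (SD, n = 2), 296 ± 14.5 in ΔETreg skin, 298 ± 59.4 for the ΔLTreg mice and 305 ± 6.11 for the ΔTreg mice (n = 3 each), so the group means of the sum lay within the spread between mice. The Igfbp2 share of that sum was 12.8% and 11.6% in control skin, 12.7%, 16.5% and 13.4% in ΔETreg skin, 8.72%, 10.2% and 8.04% in ΔLTreg skin and 6.10%, 6.19% and 5.44% in ΔTreg skin. As a share, ΔLTreg mouse 3 was close to its group mates, and all ΔTreg mice lay below all ΔLTreg mice. The Igfbp7 share was 45.2% ± 0.0798 in control skin and 53.3% ± 2.10 in ΔTreg skin, and its range there, 51.1% to 55.3%, lay above that of every other group. These shares describe transcripts, not protein, and no test was made of them.

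**Figure D3:**
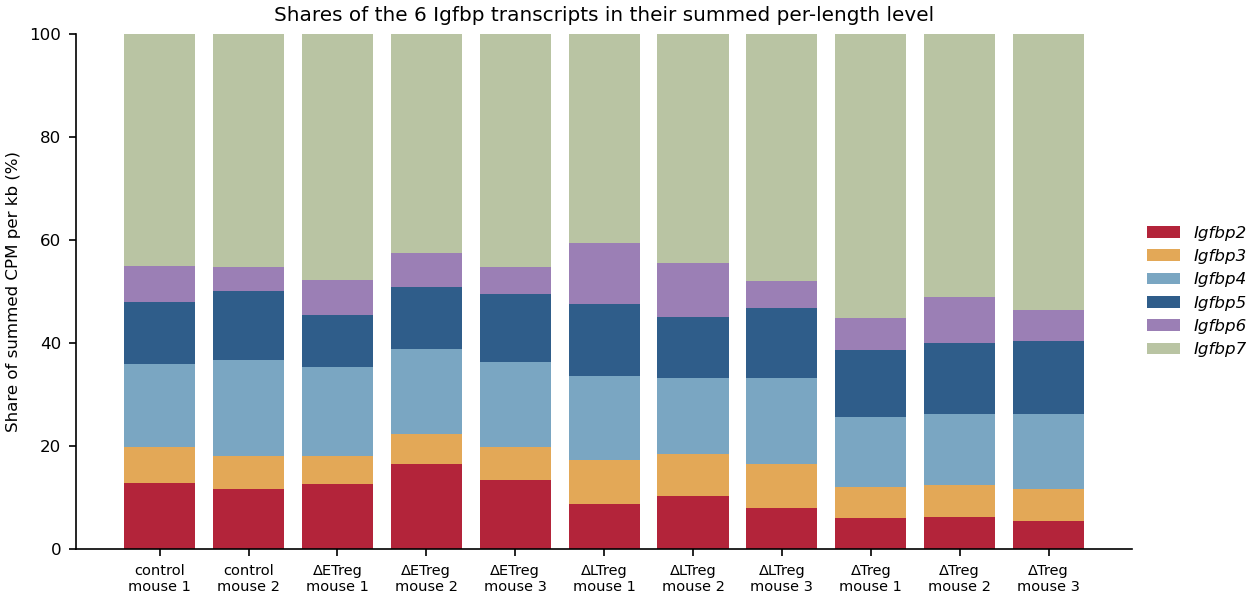
Each bar is 1 mouse, and its colours are the percent shares of the 6 Igfbp transcripts in their summed CPM per kb, stacked to 100%. The Igfbp2 share is lowest in the 3 ΔTreg mice, at 5.44% to 6.19%, and Igfbp7 is the largest share in all 11 mice.

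Around these genes, 61 other genes of the pathway were listed in 6 groups, of which 56 passed the filter. None was called between ΔETreg and control skin (3 had an unadjusted p under 0.05 in edgeR, and DESeq2 called 0), and 6 were called in ΔLTreg against control skin, all lower. That is 10.7% of the 56, beside 4.55% of all genes, and the count was 4 without ΔLTreg mouse 3, 1 without control mouse 1 and 0 by edgeR on the 2 groups alone. In ΔTreg skin, 19 were called against control, 12 higher and 7 lower, and 16 against ΔLTreg skin, 12 higher and 4 lower (18 without ΔLTreg mouse 3). These are 33.9% and 28.6% of the 56, beside 21.5% and 16.8% of all genes, and the 2 counts share the ΔTreg mice. The median log2 fold change of the 56 genes was -0.03 and 0.05.

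Among ligands, receptors and carriers, Igf2, the fetal and neonatal growth factor, had the largest loss. It was measured at 289 and 239 CPM in control skin, 220.0, 229.9 and 281 CPM in ΔETreg, 180.4, 132 and 174 CPM in ΔLTreg and 75.9, 55.3 and 89.8 CPM in ΔTreg skin. The ΔTreg mice lay below all others and the ΔLTreg mice below control and ΔETreg mice. In ΔTreg skin Igf2 was 3.58-fold lower than in control skin (log2 fold change -1.84, SE 0.192, edgeR adjusted p = 8.01e-05) and 2.20-fold lower than in ΔLTreg skin of the same age (-1.14, SE 0.176, edgeR adjusted p = 0.00119). Per length, Igf2 was at 46.1 ± 6.17 CPM per kb in control skin and 12.9 ± 3.03 in ΔTreg skin, beside 1.58 ± 0.0211 and 1.88 ± 0.172 for Igf1. Insrr, an orphan relative of the insulin receptor, was read 4 and 1 times in the control libraries, 0, 2 and 2 times in those of ΔETreg mice, 8, 6 and 1 times in those of ΔLTreg mice and 26, 38 and 29 times in those of ΔTreg mice. It was called higher in ΔTreg than in ΔLTreg skin (log2 fold change 2.63, SE 0.478, edgeR adjusted p = 0.00323), at counts so low that the fitted value depends on the prior count. Insr, the insulin receptor, was not called (edgeR adjusted p = 0.0965 against control).

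Among 7 proteases and protease inhibitors, ΔTreg skin had 2 called higher and 4 called lower against control, beside 12.1% and 9.39% of all genes. Against ΔLTreg skin 2 were called higher and 0 lower, beside 10.7% and 6.11% of all genes. Without ΔLTreg mouse 3 these were 2 and 1. Pappa2, a protease that cuts IGFBP-3 and IGFBP-5, had 21.1 and 13.9 CPM in control skin and 12.4, 15.1 and 12.6 CPM in ΔETreg skin. It had 7.66, 8.47 and 6.20 CPM in ΔLTreg skin and 7.42, 6.32 and 7.85 CPM in ΔTreg skin. Both groups harvested on P13 lay below all control and ΔETreg mice and overlapped with each other. Pappa2 in ΔTreg skin fell by 1.29 on the log2 scale against control (SE 0.183, edgeR adjusted p = 0.000589), with a difference of -0.05 from ΔLTreg skin (95% interval -0.42 to 0.33). Stc2, an inhibitor of these proteases, was 2.03-fold higher in ΔTreg than in control skin (16.8 ± 1.77 against 8.29 ± 1.18 CPM, SD, edgeR adjusted p = 0.000236) and 1.70-fold higher than in ΔLTreg skin (edgeR adjusted p = 0.000686).

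In the growth hormone arm, 6 of 7 genes were called higher in ΔTreg skin against both control and ΔLTreg skin and none was called lower, also without ΔLTreg mouse 3. Of all genes, 12.1% were called higher against control and 10.7% against ΔLTreg skin. Cish, a feedback inhibitor induced by STAT5, had 27.0 and 26.9 CPM in control skin, 26.6 to 31.1 CPM in the ΔETreg and ΔLTreg mice and 71.1, 60.01 and 55.4 CPM in ΔTreg skin, with no overlap. It was 2.30-fold higher than in control skin (log2 fold change 1.204, SE 0.0950, edgeR adjusted p = 1.3e-05). Socs3, a feedback inhibitor of cytokine receptors, was 2.66-fold higher (48.8 ± 10.5 against 18.3 ± 1.53 CPM, edgeR adjusted p = 0.000817), and Socs2, which restrains growth hormone signalling, 2.31-fold higher (14.5 ± 5.08 against 6.25 ± 0.617 CPM, edgeR adjusted p = 0.00965), the latter lost without control mouse 2 (0.0931). The transcription factor gene Stat5a was 2.04-fold higher (28.4 ± 3.34 against 13.9 ± 0.816 CPM, edgeR adjusted p = 0.000148). Ghr, the growth hormone receptor itself, had 35.2 ± 3.59 CPM in ΔTreg and 37.8 ± 2.67 CPM in control skin and was not called (log2 fold change -0.10, 95% interval -0.40 to 0.20). Many cytokines of immune cells use the same kinases and STAT proteins.

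Of 10 receptor substrates and adaptors, ΔTreg skin had 1 called higher and 2 called lower against control, beside 12.1% and 9.39% of all genes. Irs1, the main docking protein below the IGF-1 receptor, had 31.6 and 27.5 CPM in control skin, 30.8, 30.04 and 30.3 CPM in ΔETreg skin, 22.4, 21.8 and 23.6 CPM in ΔLTreg skin and 19.6, 20.5 and 22.2 CPM in ΔTreg skin. Both P13 groups lay below all control and ΔETreg mice. The log2 fold change against control was -0.51 in ΔTreg skin (SE 0.0763, edgeR adjusted p = 0.000839) and -0.39 in ΔLTreg skin (edgeR adjusted p = 0.0189), the second lost without control mouse 1 (0.135), by edgeR on the 2 groups alone (0.152) and by DESeq2 (0.0564). It was -0.42 without ΔLTreg mouse 3 (edgeR adjusted p = 0.0206). Irs2 was not called (edgeR adjusted p = 0.686 against control). The 25 genes of the PI3K, AKT, FOXO and mTOR cascade had a median log2 fold change of -0.01 in ΔTreg against control skin. Of these 25, 2 were called, beside 21.5% of all genes. One of the 2 was Pik3cd, the PI3K catalytic subunit found mainly in leukocytes, at 29.0 ± 6.61 against 9.83 ± 1.79 CPM (2.94-fold higher, edgeR adjusted p = 0.000442). Of 3 genes for proteins that bind IGF2 mRNA, none was called in ΔTreg against control skin. Against ΔLTreg skin 1 was called higher, beside 10.7% of all genes, or 0 without ΔLTreg mouse 3.

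**Figure D4:**
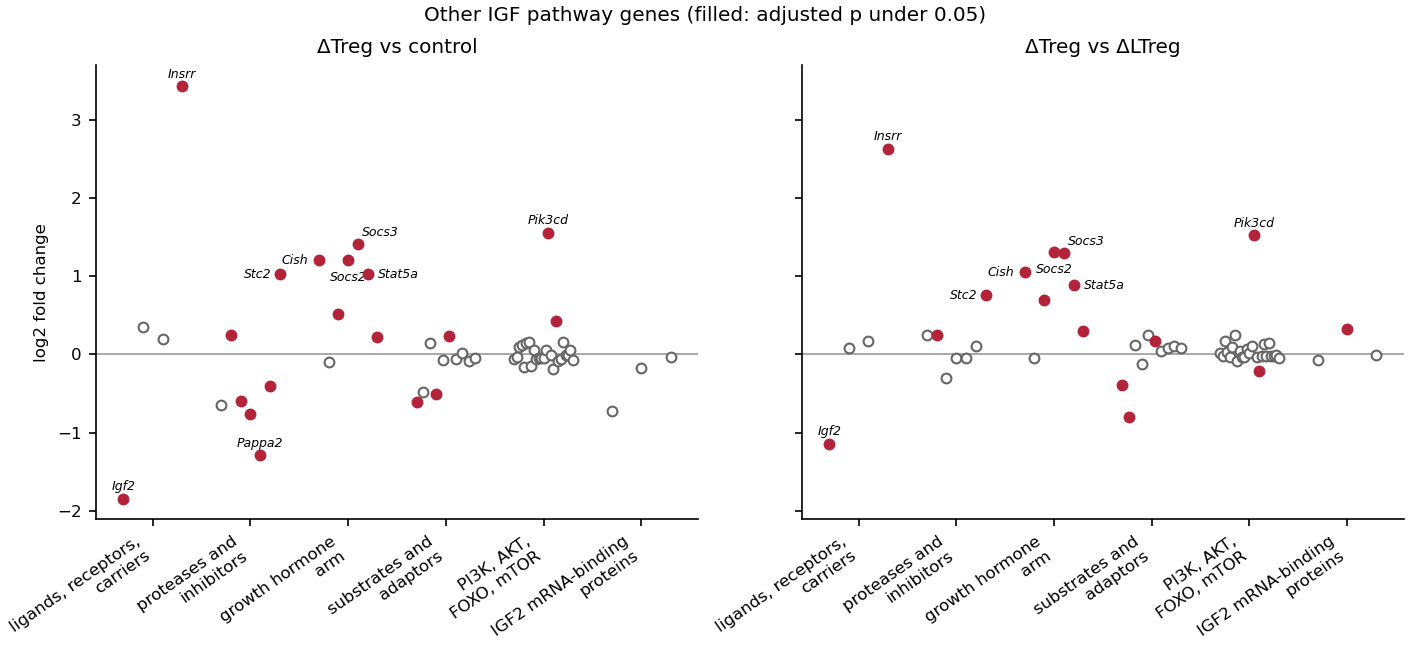
Each point is 1 of 56 tested pathway genes, placed by its group on the horizontal axis and its log2 fold change on the vertical axis, for ΔTreg against control skin and ΔTreg against ΔLTreg skin, and filled points passed an adjusted p of 0.05. Igf2 lies at -1.84 and -1.14, 6 of 7 genes of the growth hormone arm are filled above 0 in both panels, and most of the PI3K, AKT, FOXO and mTOR genes are open points near 0.

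Markers of several skin cell types differed between these groups, and their part in the results was not tested. Of all genes, 12.1% were called higher and 9.39% lower in ΔTreg against control skin, and 10.7% and 6.11% against ΔLTreg skin. Summed over 8 fibroblast markers, the level was 21623 and 18173 CPM in control mice, 13710.0 to 24319 CPM in ΔETreg, 8443 to 18416 CPM in ΔLTreg and 9950.5 to 11277 CPM in ΔTreg skin. ΔLTreg mouse 3 had the lowest sum of all 11 mice. Of these markers, 3 were lower in ΔTreg than in control skin, Col1a1, Col1a2 and Lum, with a median log2 fold change over the list of -0.63, and 1 was higher and none lower against ΔLTreg skin, or 1 higher and 3 lower without ΔLTreg mouse 3. Of 6 dermal papilla markers, 4 were lower in ΔTreg than in control skin and 1 was lower than in ΔLTreg skin, with sums of 69.3 and 71.0 CPM in control, 62.3 to 74.7 CPM in ΔETreg, 45.0 to 49.3 CPM in ΔLTreg and 30.4 to 43.7 CPM in ΔTreg skin.

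Immune markers moved the other way. Of 8 macrophage markers, 5 were higher in ΔTreg than in control skin and 6 than in ΔLTreg skin, with sums of 446 to 598 CPM in ΔTreg, 168 and 194 CPM in control, 132 to 185 CPM in ΔETreg and 87.5 to 209 CPM in ΔLTreg skin. All 8 T cell markers were higher in ΔTreg skin against both, with sums of 52.2 to 65.7 CPM beside 10.8 to 17.0 CPM in the other mice, and Cd8a and Cd8b1 were at 0 counts in 3 and 4 of the 11 libraries. Of 6 melanocyte markers, all 6 were lower in ΔTreg than in control and in ΔLTreg skin. Their sums were 701 to 732 CPM in ΔTreg, 1168 and 1386 CPM in control, 788 to 1080 CPM in ΔETreg and 1049 to 1230 CPM in ΔLTreg skin. Between ΔETreg and control skin none of the 6 was called, with log2 fold changes from -0.51 to -0.36. Skeletal muscle markers summed to 1827 to 6855 CPM in ΔLTreg skin, highest in mouse 3, and to 1181 to 3449 CPM in the other mice. In the remaining lists, called genes of ΔTreg skin set against control (higher, then lower) were 3 and 0 of 5 for monocytes and neutrophils, 1 and 4 of 7 for smooth muscle and pericytes, 1 and 2 of 7 for endothelium, 0 and 0 of 6 for adipocytes, 1 and 0 of 6 for basal keratinocytes, 0 and 3 of 6 for suprabasal keratinocytes, 1 and 1 of 7 for hair matrix and shaft, 1 and 1 of 5 for Schwann cells and 0 and 6 of 7 for the cell cycle. In that comparison 12.1% of all genes were called higher and 9.39% lower. A count of 1 in these short lists is close to those shares. The counts against ΔLTreg skin were the same without its mouse 3 for dermal papilla, macrophage, T cell, melanocyte and endothelial markers.

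**Figure D5:**
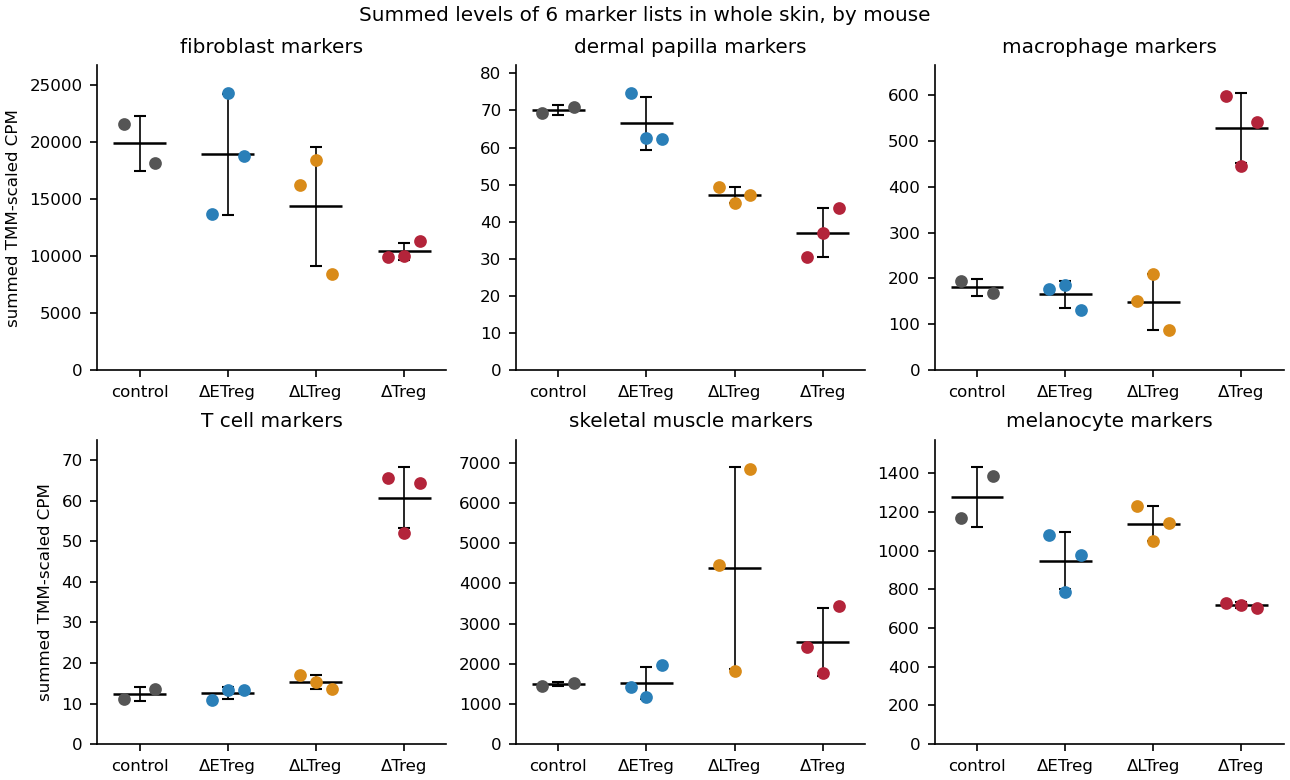
Each panel shows the summed TMM-scaled CPM of 1 marker list by mouse, with the mean ± SD of each group (control n = 2, others n = 3). The ΔTreg mice are above all others for macrophage and T cell markers and below all others for dermal papilla and melanocyte markers, and ΔLTreg mouse 3, the rightmost point of its group, is lowest for fibroblast and highest for skeletal muscle markers.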

How the data were processed

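Whole skin of 11 mice was sequenced in bulk, 1 library per mouse, and groups were taken from the treatment labels. Per the labels and the study's methods, reads were trimmed with Trimmomatic 0.36, mapped to GRCm38 with STAR 2.5.2b and counted on exons with featureCounts of Subread 1.5.2. The authors deposited these raw counts without normalization; strand use and annotation release are not given in the sources used here. Names, exon lengths and coordinates come from GENCODE M21 on GRCm38, and promoters from RefSeq on GRCm38.p6.

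Counts were filtered with edgeR's filterByExpr and TMM-scaled, 1 model with 4 group means was fitted to all 11 libraries in R 4.3.3 with edgeR 4.0.16, and each pair of groups was tested by quasi-likelihood with Benjamini-Hochberg adjustment. Standard errors were derived from F and the fitted log2 fold change. P-values set each difference against the spread between the mice sequenced, estimated over all 4 groups and moderated across genes. Pairs of mice within a group differed by more than counting error (median chi-square per gene 1.02 to 3.52, where counting error alone gives 0.455). Alternatives were DESeq2 1.42.0, edgeR on 2 groups only, other scalings and filters, a term for sex, and leaving out every mouse in turn. The 9 genes and all gene lists were chosen with earlier results of these data known. Pathway genes named are those called in ΔTreg against control or ΔLTreg skin with a log2 fold change of at least 1 in size, up to 12 by p-value, plus Igf2, Insr, Irs1, Irs2 and Ghr, and for each member so called the 3 genes closest in pattern. Igfbp1, Igfbpl1, Adam28, Klk1 and Irs4 failed the filter, with at most 5 counts in any library.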

Additional observations from a re-analysis of the deposited data

Results flagged for a closer look

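The following differences between depleted groups passed the direct test between those groups (edgeR's quasi-likelihood test, Benjamini-Hochberg adjustment). Groups of 2 or 3 mice are too small for a test of single outlying mice. ΔETreg skin was harvested 4 days earlier than the other depleted groups, so age and depletion cannot be told apart in its comparisons. Igf1r was higher than in ΔLTreg skin both in ΔTreg skin (log2 fold change 0.23, adjusted p = 0.0184) and in ΔETreg skin (0.23, adjusted p = 0.0392). Igfbp2 was lower in ΔTreg than in ΔETreg skin (-1.23, adjusted p = 0.000660), groups harvested 4 days apart. Igfbp3 was lower than in ΔLTreg skin in ΔTreg skin (-0.41, adjusted p = 0.0377) and in ΔETreg skin (-0.53, adjusted p = 0.0286). Igfbp7 was higher in ΔTreg skin than in ΔLTreg skin (0.32, adjusted p = 0.0305) and ΔETreg skin (0.29, adjusted p = 0.0369). Without ΔLTreg mouse 3, Igfbp7 against ΔLTreg skin (adjusted p = 0.0538) and Igf1r in ΔETreg against ΔLTreg skin (0.0708) were no longer called. The other calls against ΔLTreg skin held. Of all genes, 16.8% were called between ΔTreg and ΔLTreg skin, 23.1% between ΔTreg and ΔETreg skin and 6.38% between ΔETreg and ΔLTreg skin.

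Among the other pathway genes, ΔTreg skin differed from ΔLTreg skin of the same age in Igf2 (log2 fold change -1.14, adjusted p = 0.00119), Insrr (2.63, adjusted p = 0.00323), Stc2 (0.76, adjusted p = 0.000686), Stat5a (0.89, adjusted p = 0.000160), Socs2 (1.31, adjusted p = 0.00335), Socs3 (1.29, adjusted p = 0.000636), Cish (1.05, adjusted p = 1.35e-05) and Pik3cd (1.53, adjusted p = 0.000209). These 8 are listed because they were called, in a comparison in which 16.8% of all genes were called. Without ΔLTreg mouse 3 the values were -1.08, 2.12, 0.68, 0.82, 1.13, 1.14, 1.04 and 1.37 in the same order, with adjusted p-values of at most 0.0104.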

How the results depend on the processing

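No paired analysis was possible because the labels give the mice no replicate numbers or litters. Each of 18 alternatives was applied to 89 single-gene log2 fold changes, and of 1600 values 1475 kept their direction and side of the threshold, 55 lost a call, 32 gained one and 38 changed sign. The calls of Igfbp2 against control and ΔETreg skin, and of Igf2, Cish, Stat5a, Stc2, Socs3, Pik3cd, Pappa2, Irs1 and Insrr in ΔTreg against control skin, held under each alternative that gave a value (Insrr was removed by the minimum of 10 counts). With 2 or 3 mice a group, small differences rested on single mice; the cause was not tested.

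Of the 9 genes, DESeq2 called 3 between ΔTreg and control skin (1 in the report) and 4 between ΔTreg and ΔETreg skin (2 in the report). EdgeR on the 2 groups alone called 2 between ΔTreg and control, 1 between ΔTreg and ΔLTreg (3 in the report) and 0 between ΔETreg and ΔLTreg skin (2 in the report). Library size in place of TMM called 1 between ΔTreg and ΔETreg and 1 between ΔETreg and ΔLTreg skin, and a term for sex called 1 and 0. With a mouse left out the counts ran from 0 to 2 for ΔLTreg against control (2 without ΔLTreg mouse 3), 1 to 2 for ΔTreg against control, 0 to 4 against ΔLTreg and 1 to 2 against ΔETreg, and 0 to 2 for ΔETreg against ΔLTreg skin. Of the 56 pathway genes, the 6 called between ΔLTreg and control skin became 0 by edgeR on the 2 groups alone, 3 with library size and 1 to 8 with a mouse left out.

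All changes of sign were in differences that were not called. With sex in the model Igf2r in ΔETreg against control skin became -0.0051 and Igfbp5 in ΔLTreg against control skin 0.016; the latter was 0.017 with library size and 0.0024 at a minimum of 10 counts in every library, where Igf1r in ΔTreg against ΔETreg skin was 0.0023. With a mouse left out, ΔETreg against control ran from -0.32 to 0.0030 for Igf1, -0.0016 to 0.12 for Igf1r, -0.040 to 0.053 for Igf2r, -0.28 to 0.077 for Igfbp4, -0.14 to 0.28 for Igfbp6 and -0.13 to 0.016 for Igfbp7. ΔLTreg against control ran from -0.22 to 0.16 for Igf1, -0.35 to 0.012 for Igfbp4, -0.17 to 0.14 for Igfbp5 and -0.16 to 0.018 for Igfbp7. ΔTreg against control ran from -0.0077 to 0.12 for Igf1r, -0.050 to 0.23 for Igfbp5 and -0.26 to 0.15 for Irs2. ΔTreg against ΔLTreg ran from -0.036 to 0.26 for Igfbp5, -0.16 to 0.048 for Pappa2 and -0.14 to 0.076 for Ghr, and Igf1r in ΔTreg against ΔETreg from -0.043 to 0.021. ΔETreg against ΔLTreg ran from -0.26 to 0.11 for Igf1, -0.057 to 0.21 for Igfbp4, -0.29 to 0.0050 for Igfbp5 and -0.067 to 0.10 for Igfbp7.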
